A study of Mus musculus with 6 samples.

Results

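Collagens are the main structural proteins of the extracellular matrix, and the 44 collagen genes of the mouse table were followed here in RNA-seq libraries of sciatic nerve at postnatal day 4 (P4). They were chosen by name alone, as every row with a symbol made of Col, a type number, the letter a and a chain number, and they made up 44 of the 59485 genes measured. They were sorted into 4 classes, namely 8 fibrillar, 9 basement membrane, 7 cartilage and 20 other collagens. The study asked how loss of *Adar1*, which encodes an enzyme that edits adenosines in double-stranded RNA, alters neural crest derivatives such as Schwann cells. The 3 libraries of the mutant group carried the genotype label Ht-PA-Cre; Adar1fl/fl;R26R, in which the promoter of human tissue plasminogen activator drives Cre in neural crest cells, both *Adar1* alleles are floxed and R26R is a YFP tracer of the Cre-expressing lineage. The 3 control libraries were labelled wild-type, a name that the study's methods use for animals without Cre that are Adar1fl/fl;R26R or Adar1fl/+;R26R, so the floxed allele and the tracer were present in both groups. Each library came from 1 animal of its own, and the nerves were whole tissue, so that a fall of a transcript through fewer cells of a type cannot be told apart from less RNA per cell.

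Each collagen molecule is built of chains that wind around each other into a rope-like helix, and it is named by its type and its chains. Fibrillar collagens pack into the fibrils that give nerve its tensile strength, network-forming type IV chains are the scaffold of the basement membrane around every Schwann cell, perineurial cell and vessel, and beaded, fibril-associated and transmembrane types link these structures with each other and with cells. In peripheral nerve fibroblasts make much of the fibrillar collagen, whereas Schwann cells make type IV and type V chains and need a basement membrane to myelinate.

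The targeted gene went against its label. *Adar* had normalised values of 1602, 2066 and 1133 in control replicates 1, 2 and 3 and of 11768, 9311 and 9773 in mutant replicates 1, 2 and 3, and the table holds 1 value a gene, so the deleted segment could not be read on its own. The groups are therefore called the control-labelled and the mutant-labelled libraries. Between 50938349 and 78250094 reads per library were assigned to genes, and 1 read was worth 0.727 to 1.27 units of normalised value.

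Collagen transcripts were lower in the mutant-labelled nerves as a family, with the cartilage class at the far end and a few members moving the other way. A gene passed the threshold, which is that of the study's methods, with an unadjusted p at or under 0.05 in limma and a change of at least 2-fold on the scale of log2(value + 1). All 44 collagens were high enough to be tested among 25802 genes, of which 24.2% passed the threshold. Lower in the mutant-labelled libraries were 18 collagens, or 40.9%, where the background over all genes tested was 10.4%. Higher were 3 collagens, *Col18a1*, *Col6a4* and *Col25a1*, or 6.82% against a background of 13.9%. With a p adjusted over all genes tested (Benjamini-Hochberg, limma) at or under 0.05 and no limit on size, 27 collagens were lower (61.4%, background 16.0%) and 4 higher (9.09%, background 19.0%). The 21 collagens past the threshold also passed the adjusted p. In 27 collagens all mutant-labelled libraries lay under all control-labelled ones (background 23.3%), in 4 they lay above (background 25.9%), and in 13 the groups overlapped. The median log2 fold change was -0.80 over the collagens and 0.03 over all genes tested.

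Markers of the cells in the nerve were read with the same threshold and background. Of 8 Schwann cell markers 5 were lower in the mutant-labelled libraries (62.5%, background 10.4%) and none higher, and each of the 8 was present in every library. Of 9 fibroblast markers none passed in either direction (background 24.2%). Of 7 perineurial markers 2 were lower (28.6%, background 10.4%) and none higher, and by the adjusted p 3 were lower (42.9%, background 16.0%) and 2 higher (28.6%, background 19.0%). Their sums of 18706, 22154 and 18949 in control-labelled and 16128, 18207 and 15569 in mutant-labelled libraries did not overlap, but the 2 most abundant genes went opposite ways. *Itgb4* fell from 7610, 10342 and 9575 to 3089, 2957 and 2821, and *Cldn1* rose from 7317, 7808 and 6175 to 10060, 11315 and 9551. The lower sums therefore do not stand for the list as a whole. The part of perineurial markers in the changes of basement membrane collagens was not tested. Higher were 4 of 7 keratinocyte genes (57.1%), 3 of 5 tested T cell genes (60%) and 2 of 7 osteoblast genes (28.6%, background 13.9% for each), with none lower. Of 5 tendon genes 1 was higher (20%, background 13.9%) and 1 lower (20%, background 10.4%). No gene of the adipocyte or the pericyte and smooth muscle list passed (background 24.2%). The part of these cells was not tested. Of 10 skeletal muscle genes 9 were higher (90%, background 13.9%). The summed muscle genes stood at 37698, 7571 and 29113 in the control-labelled and 110543, 49908 and 356798 in the mutant-labelled libraries, mutant replicate 3 having most, and their part in the results below was not tested. Mutant replicate 3 had the lowest value of the 3 in 23 of the 27 collagens with a lower adjusted call. The same count was not made over all genes, so it cannot be read as particular to collagens. Its relation to muscle RNA was not tested.

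Collagen genes took 5.88%, 5.69% and 5.05% of all reads in the control-labelled libraries and 3.72%, 3.57% and 2.62% in the mutant-labelled ones. The shares did not overlap, and their means were 5.54 ± 0.436% and 3.30 ± 0.597% (SD, n = 3 each), a difference of -2.24 percentage points (exact two-sided permutation test, p = 0.1, the smallest that 20 arrangements of 3 against 3 libraries allow).

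**Figure D1:**
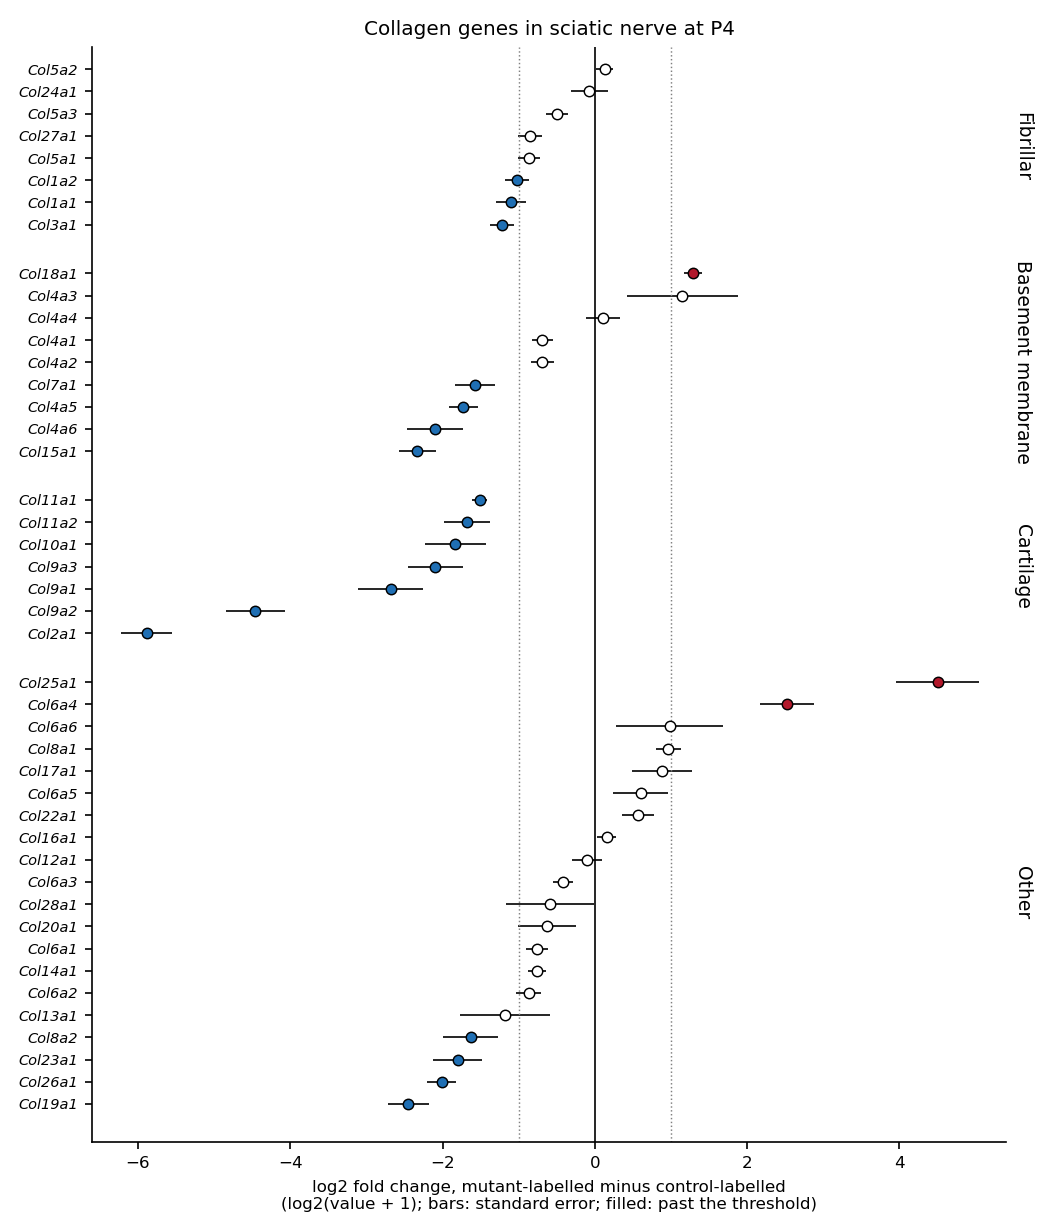
The log2 fold change of each of the 44 collagen genes (horizontal axis, mutant-labelled minus control-labelled, from log2 of value + 1) is plotted by class, with its standard error as a bar and filled points for genes past the threshold. All 7 cartilage collagens lie left of the dotted line at a 2-fold fall, whereas *Col25a1*, *Col6a4* and *Col18a1* are the 3 filled points to the right of 0.

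Fibrillar collagens fell in the mutant-labelled nerves except for 2 of the 8, with a class median log2 fold change of -0.85. Lower past the threshold were *Col3a1*, *Col1a1* and *Col1a2* (37.5%, background 10.4%), none was higher (background 13.9%), and 6 of the 8 were lower by the adjusted p (75%, background 16.0%). *Col1a1* (GSMG0005795, chr11:94936224-94953040 in build mm10, plus strand) and *Col1a2* (GSMG0031435, chr6:4505618-4541543, plus strand) encode the chains of type I collagen, the bulk fibril of epineurium. *Col1a1* stood at 1246686, 1320418 and 1163031 in the control-labelled libraries and at 700020.3, 656549.8 and 421118 in the mutant-labelled libraries (replicates 1, 2 and 3, in this order throughout). Its group means of 1243378 ± 78745 and 592563 ± 150058 (SD, n = 3 each) differed 2.10-fold, with a log2 fold change -1.10, SE 0.20, adjusted p = 0.00311. Every mutant-labelled library lay under every control-labelled one, mutant replicate 3 lowest. *Col1a2* was measured at 775619, 787877 and 714445 in control-labelled and 428618, 416039 and 296663 in mutant-labelled libraries. The fall of *Col1a2* sat right at the 2-fold limit (log2 fold change -1.01, SE 0.16, adjusted p = 0.00157), again with no overlap. *Col3a1* (GSMG0000219, chr1:45311538-45349852, plus strand), the type III chain of thinner fibrils in compliant tissue, went from 744931, 725121 and 566576 to 312602, 325354 and 240325. That was the largest fall of the class (log2 fold change -1.22, SE 0.16, adjusted p = 0.000705). Calls of *Col1a1* and *Col1a2* were lost when libraries were rescaled to the same total, at log2 fold changes of -0.94 and -0.85, and without mutant replicate 3, at -0.87 and -0.85, although both stayed lower by the adjusted p. *Col1a2* also fell just short of 2-fold without control replicate 1 (-0.999) and without control replicate 2 (-0.988).

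The type V chains, which sit inside type I fibrils and set their diameter, parted from each other. *Col5a1* (GSMG0020843, chr2:27886425-28039509, plus strand) read 120995, 135639 and 114776 in the control-labelled and 84320.1, 65045 and 57309 in the mutant-labelled libraries. It was lower by the adjusted p but under 2-fold (log2 fold change -0.86, SE 0.15, adjusted p = 0.00257), and without mutant replicate 1 it passed the threshold at -1.02. *Col5a3* (GSMG0040424, chr9:20770050-20815067, minus strand), a chain known from Schwann cells, had 58468, 65459.7 and 53171 against 50763, 40308 and 35197. Its groups did not overlap either, and the difference was smaller (log2 fold change -0.50, SE 0.14, adjusted p = 0.0274). *Col5a2* (GSMG0001545, chr1:45374331-45503283, minus strand) had values of 86596, 81935 and 73626 and 94019.9, 93341 and 78447, which overlapped (log2 fold change 0.13, SE 0.11, adjusted p = 0.382). It is the convergent neighbour of *Col3a1* on chromosome 1, the ends of the genes lying 24478 bases apart, and the 2 neighbours differed in call. The minor fibrillar gene *Col27a1* was lower by the adjusted p and under 2-fold, with 2508 to 3526 in control-labelled and 1515 to 1980.0 in mutant-labelled libraries and a log2 fold change of -0.85, and a miRNA gene on the same strand overlaps it. *Col24a1*, the other minor fibrillar gene, had means of 466 ± 115 and 439 ± 82.4 (SD, n = 3 each), with overlapping groups. Summed fibroblast markers, the genes of the cell that makes most type I and III collagen, stood at 83105, 71076 and 56023 and 60347, 75103 and 70548 and overlapped too, as did the sums without *Dcn*, the most abundant of them (19319.9 to 30721 and 19912 to 25869). Of the 9, *Osr2* was the 1 lower by the adjusted p (11.1%, background 16.0%), with a log2 fold change of -0.71 and adjusted p = 0.00909 (limma).

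**Figure D2:**
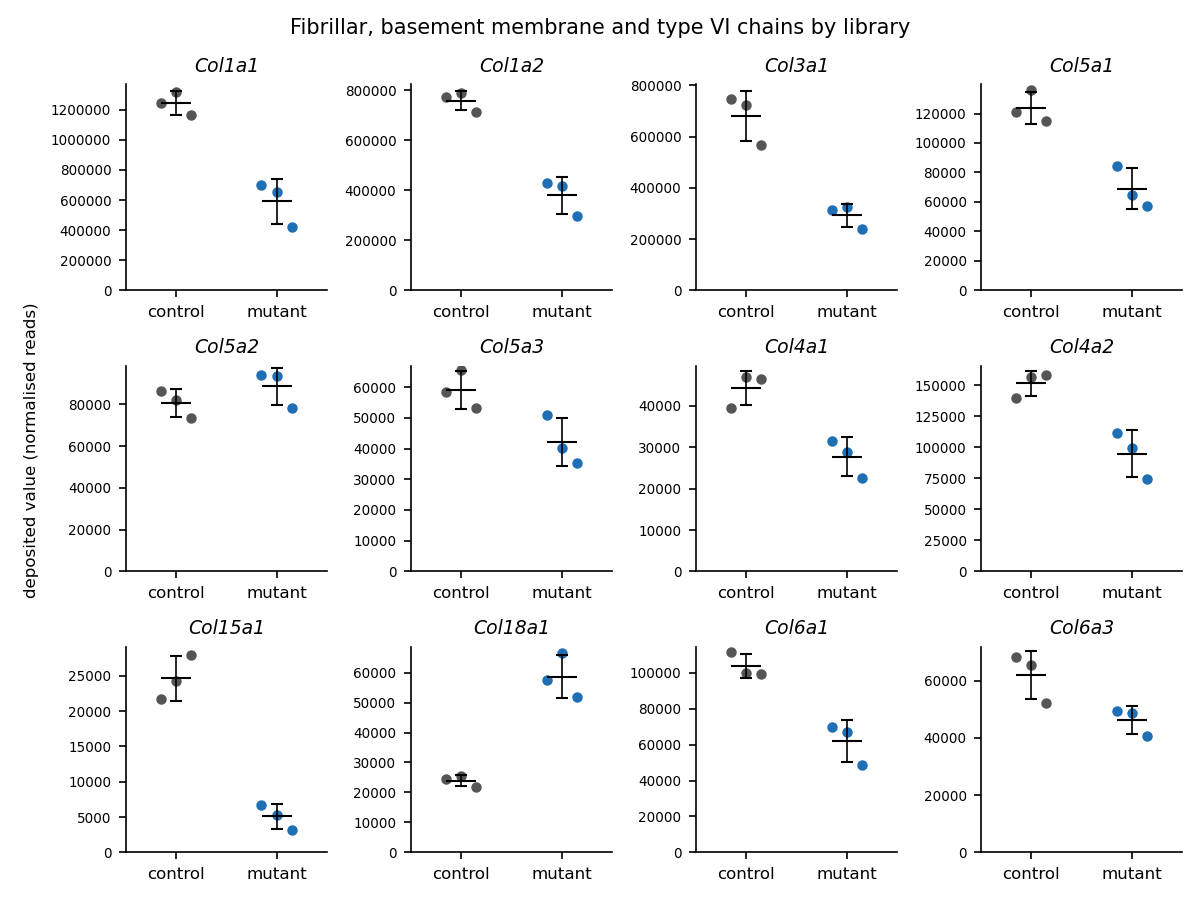
Each panel shows 1 collagen gene, with its deposited value (normalised reads, linear axis from 0) in the 3 control-labelled (grey) and 3 mutant-labelled (blue) libraries, the group mean as a long line and 1 SD as bars. Groups are apart and lower in mutant-labelled libraries in all panels except *Col5a2*, where they overlap, and *Col18a1*, where all 3 are higher.

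Of the 9 basement membrane collagens, 4 passed the threshold downward (*Col15a1*, *Col4a6*, *Col4a5* and *Col7a1*, 44.4%, background 10.4%), and the median was -0.69. Lower by the adjusted p were 6 (66.7%, background 16.0%). *Col18a1* was the 1 member higher by either rule (11.1%, background 13.9% past the threshold and 19.0% by the adjusted p). Type IV genes lie in the genome as pairs with their starts towards each other, so a single stretch of DNA holds or adjoins the promoters of both. *Col4a1* (GSMG0038089, chr8:11198424-11312826, minus strand) and *Col4a2* (GSMG0036995, chr8:11312805-11449287, plus strand), whose chains form the network of nearly all basement membranes, overlap by 22 bases at their starts. *Col4a4* (GSMG0001816, chr1:82450723-82586849, minus strand) and *Col4a3* (GSMG0000474, chr1:82586920-82722059, plus strand), chains of specialised membranes such as that of the glomerulus, are 70 bases apart. *Col4a6* (GSMG0042881, chrX:141165403-141474076, minus strand) and *Col4a5* (GSMG0042159, chrX:141475417-141689235, plus strand) are 1340 bases apart on the X chromosome. To show how the paired starts lie, the RefSeq windows of 250 bases before to 50 bases after the start are given (GRCm38.p6, 5′ to 3′ on the gene's strand), those of *Col4a5* and *Col4a6* not overlapping, with the letters CCAAT or GGGCGG on either strand in capitals.

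*Col4a2* (chr8:11312555-11312854, + strand; its start is base 251, and *Col4a1* starts at base 272 on the other strand): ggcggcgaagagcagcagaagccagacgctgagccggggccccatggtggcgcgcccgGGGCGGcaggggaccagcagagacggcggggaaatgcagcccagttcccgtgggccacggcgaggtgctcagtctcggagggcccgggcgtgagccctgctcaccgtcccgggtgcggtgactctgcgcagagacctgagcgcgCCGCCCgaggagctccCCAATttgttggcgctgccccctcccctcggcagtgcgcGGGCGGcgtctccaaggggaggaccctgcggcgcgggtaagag
*Col4a4* (chr1:82586800-82587099, minus strand; *Col4a3* starts at base 180 on the other strand): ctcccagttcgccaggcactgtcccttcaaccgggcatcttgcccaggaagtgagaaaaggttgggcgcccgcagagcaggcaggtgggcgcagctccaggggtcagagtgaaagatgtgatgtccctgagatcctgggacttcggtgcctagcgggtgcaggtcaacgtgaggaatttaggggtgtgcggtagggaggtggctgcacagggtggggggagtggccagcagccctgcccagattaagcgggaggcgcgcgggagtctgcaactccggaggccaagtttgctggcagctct
*Col4a5* (chrX:141475169-141475468, + strand): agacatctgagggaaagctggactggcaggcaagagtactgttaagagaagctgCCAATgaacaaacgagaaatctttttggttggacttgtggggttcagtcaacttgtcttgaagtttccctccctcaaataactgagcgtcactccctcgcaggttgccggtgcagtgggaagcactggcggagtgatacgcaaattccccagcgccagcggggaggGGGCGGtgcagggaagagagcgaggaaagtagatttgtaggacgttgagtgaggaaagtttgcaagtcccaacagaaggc
*Col4a6* (chrX:141474027-141474326, minus strand): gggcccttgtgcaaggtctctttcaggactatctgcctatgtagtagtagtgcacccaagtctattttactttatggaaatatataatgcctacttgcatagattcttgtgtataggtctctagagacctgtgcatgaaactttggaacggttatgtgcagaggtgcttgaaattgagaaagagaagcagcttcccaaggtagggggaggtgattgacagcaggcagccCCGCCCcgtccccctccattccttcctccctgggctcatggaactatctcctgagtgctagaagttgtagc

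The *Col4a2* window held 1 CCAAT and 3 GGGCGG matches, the *Col4a4* window neither, the *Col4a5* window 1 of each and the *Col4a6* window 1 GGGCGG. Over 38 windows of 35 collagen genes (9 genes had none), CCAAT stood in 13, or 34.2%, against 37.4% of 32851 windows of all genes, and GGGCGG in 23, or 60.5%, against 35.7%. The letters ACAAAG or ACAATG, which SOX factors can bind, stood in 5 of the 38 (13.2%, all genes 28.6%). A match only says that the letters are there.

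*Col4a1* had values of 39564, 46959.6 and 46481 in the control-labelled and 31624, 28923 and 22489.5 in the mutant-labelled libraries. *Col4a2* had 139920.1, 156722 and 157865 and 111206, 99277 and 74481. Neither pair of groups overlapped, and the 2 genes had the same log2 fold change of -0.69 to 2 decimals, with SE 0.14 and 0.15 and adjusted p = 0.00556 and 0.00805, short of the 2-fold limit. The X-linked pair fell further. *Col4a5* dropped from 913, 933 and 1249 to 371, 292 and 270 (log2 fold change -1.72, SE 0.19, adjusted p = 0.000286). *Col4a6*, which 5 unnamed genes on its strand overlap so that its reads are uncertain, dropped from 353, 193 and 525 to 84.4, 68.5 and 77.1 (log2 fold change -2.09, SE 0.37, adjusted p = 0.00296). By *Xist* and Y-linked genes, control replicate 2 and mutant replicates 1 and 3 were male and the other libraries female, so each group held both sexes. *Col4a4* had 309.8, 301 and 284 against 421, 258 and 309 (log2 fold change 0.11, SE 0.22, adjusted p = 0.724). *Col4a3*, the lowest member of the family at its higher group mean of 28.2, had 6.66, 26.5 and 7.60 against 14.5, 40.5 and 29.7 (log2 fold change 1.15, SE 0.73, adjusted p = 0.254). Both of these overlapped between groups, and without control replicate 2 *Col4a3* passed the threshold at 1.74 (adjusted p = 0.124, limma).

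*Col15a1* and *Col18a1* encode the multiplexins, collagens with an interrupted helix that sit at the outer face of basement membranes, and cleavage of the latter releases endostatin. These relatives moved in opposite directions. *Col15a1* (GSMG0026538, chr4:47208012-47313165, plus strand) fell from 21675, 24327 and 27918 to 6763, 5333 and 3194, and its means of 24640 ± 3133 and 5097 ± 1796 (SD, n = 3 each) differed 4.83-fold. It had a log2 fold change -2.33, SE 0.24, adjusted p = 0.00021. *Col18a1* (GSMG0004282, chr10:77052180-77166537, minus strand) rose from 24476, 25435 and 21768 to 57532, 66457 and 51991, and its means of 23893 ± 1902 and 58659.7 ± 7299 differed 2.46-fold. It had a log2 fold change 1.29, SE 0.11, adjusted p = 8.42e-05, and no library of either gene crossed into the other group. Both calls held in each setting and each time a library was left out. Their windows were chosen for display after these values were seen. The *Col15a1* window held 0 matches to the marked letters, as did the window at the downstream start of *Col18a1*, and the window at its upstream start, printed here, held 1 CCAAT and 3 GGGCGG.

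*Col15a1* (chr4:47207762-47208061, + strand): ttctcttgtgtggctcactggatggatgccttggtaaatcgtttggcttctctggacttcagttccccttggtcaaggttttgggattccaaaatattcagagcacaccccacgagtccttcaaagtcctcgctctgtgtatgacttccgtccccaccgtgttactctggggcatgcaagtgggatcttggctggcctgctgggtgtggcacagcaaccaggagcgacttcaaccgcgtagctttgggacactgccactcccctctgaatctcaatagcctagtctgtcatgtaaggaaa
*Col18a1* (chr10:77166481-77166780, minus strand): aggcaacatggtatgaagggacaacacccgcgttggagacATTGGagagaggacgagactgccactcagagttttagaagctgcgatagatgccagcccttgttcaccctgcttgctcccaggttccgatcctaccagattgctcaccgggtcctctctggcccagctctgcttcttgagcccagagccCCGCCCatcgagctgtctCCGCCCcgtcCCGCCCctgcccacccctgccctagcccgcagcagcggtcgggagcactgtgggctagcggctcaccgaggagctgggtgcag

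*Col7a1* (GSMG0040110, chr9:108953745-108984879, plus strand), whose product forms the anchoring fibrils under epithelia, stood at 2025, 2086 and 2448 in control-labelled and 1139.8, 516 and 669.6 in mutant-labelled libraries. It was lower without overlap (log2 fold change -1.57, SE 0.26, adjusted p = 0.0022).

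All 7 cartilage collagens passed the threshold downward (100%, background 10.4%), and the class median was -2.10. *Col2a1* (GSMG0014456, chr15:97975603-98004724, minus strand), the chain of the main cartilage fibril, had the largest fall of any collagen. Its values were 10242, 9334 and 11755 in the control-labelled libraries and 214, 266 and 94.0 in the mutant-labelled libraries. The means of 10443 ± 1223 and 191 ± 88.3 (SD, n = 3 each) lay 54.6-fold apart (log2 fold change -5.88, SE 0.34, adjusted p = 1.12e-05). Type IX collagen is a fibril-associated heterotrimer carried on the surface of type II fibrils. Of its chains, *Col9a2* (GSMG0027022, chr4:121039566-121055325, plus strand) went from 6850.3, 6358 and 8756 to 665, 279 and 192, 19.3-fold between means (log2 fold change -4.46, SE 0.39, adjusted p = 8.27e-05). *Col9a1* (GSMG0000095, chr1:24177610-24252738, plus strand) went from 879, 692 and 1443 to 274, 138 and 86.0 (log2 fold change -2.68, SE 0.43, adjusted p = 0.00174). *Col9a3* (GSMG0022302, chr2:180598222-180622189, plus strand) went from 1947, 2842 and 2439 to 1079, 406 and 393 (log2 fold change -2.10, SE 0.36, adjusted p = 0.00275). For each type IX chain the highest mutant-labelled library was replicate 1 and still below the lowest control-labelled library.

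Type XI collagen nucleates cartilage fibrils and is close kin to type V. *Col11a1* (GSMG0024837, chr3:114030538-114220756, plus strand) was tight in both groups, at 9020.1, 8334 and 9455 and 3175, 3326 and 2895. Its log2 fold change -1.51, SE 0.10, adjusted p = 1.83e-05 was the most precise of the class, although 1 unnamed gene overlaps it on the same strand. *Col11a2* (GSMG0016536, chr17:34039138-34066684, plus strand) was measured at 1228, 1540.2 and 1414 and 737, 359.9 and 303 (log2 fold change -1.68, SE 0.30, adjusted p = 0.00332). *Col10a1* (GSMG0002866, chr10:34389981-34397089, plus strand), a marker of hypertrophic chondrocytes, was low throughout, at 131, 141 and 100.1 and 21.8, 38.6 and 45.5 (log2 fold change -1.83, SE 0.40, adjusted p = 0.00849).

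The genes that define chondrocytes differed among themselves. Of 13 chondrocyte genes 9 were high enough to be tested, 2 passed the threshold downward (22.2%, background 10.4%) and none upward (background 13.9%). The matrilin *Matn4* fell with the collagens, from 3385, 3063 and 6325 to 121, 106 and 174 (log2 fold change -4.93, SE 0.29, adjusted p = 1.44e-05), as did *Cnmd*, the chondromodulin gene, from 118, 86.0 and 60.8 to 1.45, 0 and 7.91 (log2 fold change -4.94, SE 0.86, adjusted p = 0.00285). *Acan*, the main cartilage proteoglycan, stood at 131, 53.9 and 112 and 22.5, 286 and 46.5, which overlapped (log2 fold change -0.45, SE 0.84, adjusted p = 0.712). *Sox9*, the transcription factor of chondrocyte identity, overlapped as well, at 2469.6, 1895 and 2021 and 2681, 2844 and 2199.7 (log2 fold change 0.28, SE 0.14, adjusted p = 0.169). *Hapln1*, *Comp*, *Cytl1* and *Sox5* overlapped too, *Sox6* was lower by the adjusted p at a log2 fold change of -0.84, and the cartilage-restricted genes *Matn1*, *Matn3*, *Snorc* and *Ucma* were between 0 and 15.8 in every library. Summed over the 13 genes, the values were 7653, 6486 and 9864 in control-labelled and 3643, 4959 and 3586 in mutant-labelled libraries. Without *Matn4* the sums of the other 12 overlapped, at 4269, 3422 and 3539 and 3521, 4853 and 3412. The part of any cartilage tissue in the libraries was not tested beyond these values.

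**Figure D3:**
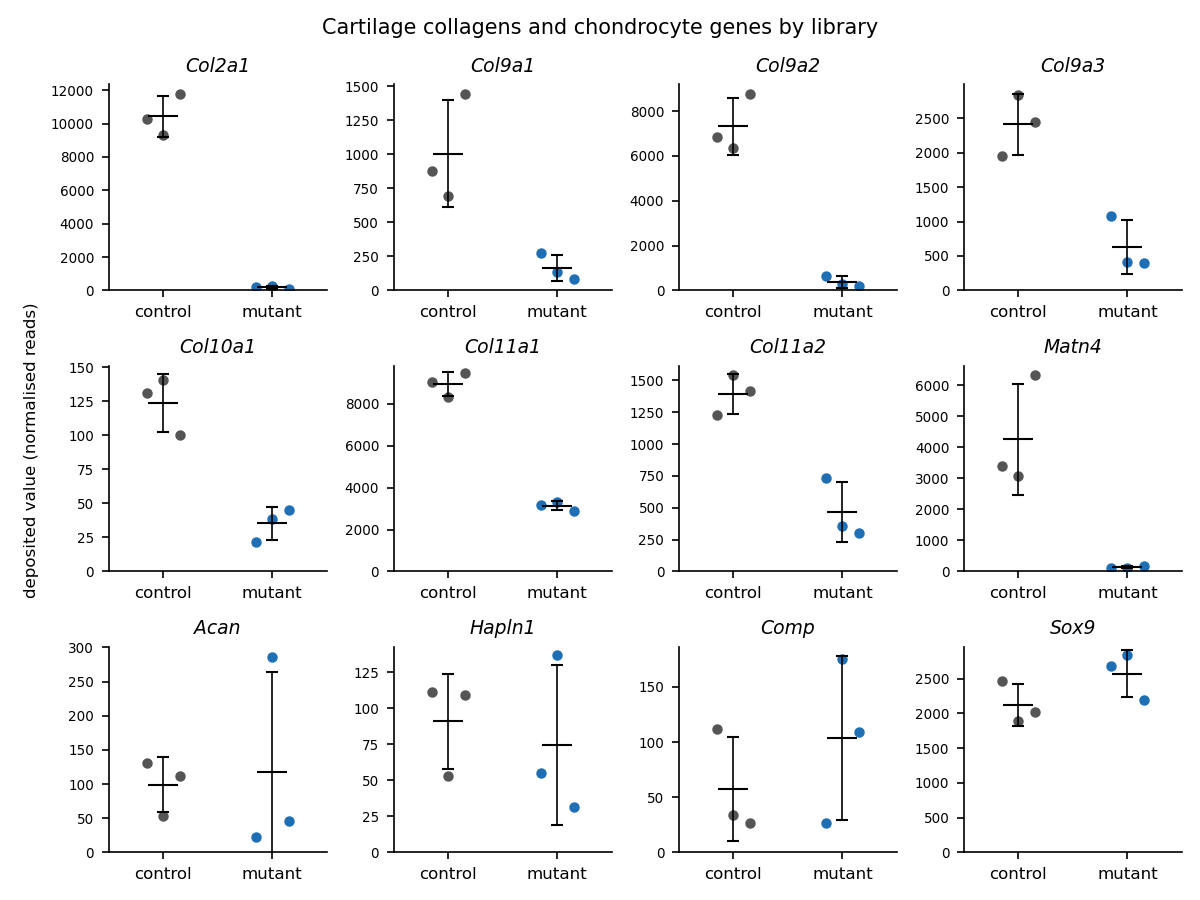
The 7 cartilage collagens and 5 chondrocyte genes are shown by library, with deposited values (normalised reads, linear axis from 0), control-labelled libraries in grey, mutant-labelled in blue, group means as long lines and 1 SD as bars, which end at the axis where they would pass below 0. The 7 collagens and *Matn4* are apart between groups, whereas *Acan*, *Hapln1*, *Comp* and *Sox9* overlap.

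Among the 20 other collagens, 4 passed the threshold downward (20%, background 10.4%) and 2 upward (10%, background 13.9%), and the median was -0.51. By the adjusted p 8 were lower (40%, background 16.0%) and 3 higher (15%, background 19.0%). The beaded and related chains came first in number, with 8 members. Type VI collagen forms beaded microfilaments next to basement membranes and is secreted in nerve by fibroblasts and Schwann cells. Its common chains were lower by the adjusted p, each without overlap and under 2-fold. *Col6a1* (GSMG0004273, chr10:76708792-76726044, minus strand) had 111416, 100051 and 99481 against 70019, 67178 and 48706 (log2 fold change -0.76, SE 0.14, adjusted p = 0.0043). *Col6a2* (GSMG0004272, chr10:76595756-76623630, minus strand) had 40338, 34902 and 32909 against 24158, 20616 and 15277 (log2 fold change -0.87, SE 0.16, adjusted p = 0.00428). *Col6a3* (GSMG0001886, chr1:90766860-90843971, minus strand), encoding the largest of the common chains, had 68183, 65342 and 52284 against 49425, 48758 and 40548 (log2 fold change -0.42, SE 0.13, adjusted p = 0.0357). The ratio of *Col6a3* to *Col6a1* was 0.612, 0.653 and 0.526 in control-labelled and 0.706, 0.726 and 0.833 in mutant-labelled libraries, so *Col6a3* fell less than its partner in each mutant-labelled library. *Col6a2* passed the threshold at -1.02 without mutant replicate 1.

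The alternatives to the *Col6a3* chain lie in a row on the minus strand of chromosome 9, *Col6a6*, *Col6a5* and *Col6a4*, with gaps of 27908 and 28810 bases. *Col6a4* (GSMG0041247, chr9:105989454-106096783) rose from 40.0, 81.3 and 48.2 to 412, 311 and 244, 5.71-fold between means (log2 fold change 2.53, SE 0.35, adjusted p = 0.00089). Its neighbours did not pass. *Col6a5* (GSMG0051084, chr9:105856070-105960643) had 269, 636 and 266 against 748, 432 and 497 (log2 fold change 0.60, SE 0.36, adjusted p = 0.228). *Col6a6* (GSMG0051086, chr9:105689417-105828161) had 159, 34.0 and 21.5 against 87.3, 73.3 and 147 (log2 fold change 0.98, SE 0.70, adjusted p = 0.31). Both overlapped between groups, each through 1 high control-labelled library, and 1 unnamed gene overlaps *Col6a6* on its strand. Without control replicate 2 *Col6a5* passed at 1.02, and without control replicate 1 *Col6a6* passed at 1.82.

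*Col26a1* (GSMG0031225, chr5:136741759-136883215, minus strand), a secreted collagen with an EMI domain, fell from 4926, 5623 and 5566 to 1494, 1643 and 958. That was 3.93-fold between means (log2 fold change -2.01, SE 0.19, adjusted p = 0.000129), with no overlap. *Col28a1* (GSMG0032720, chr6:7997808-8192617, minus strand), a chain known from peripheral nerve, varied widely within groups. It had 20256, 4334 and 16905 against 5631, 5494 and 13964, overlapping and without a call (log2 fold change -0.59, SE 0.58, adjusted p = 0.46). Control replicate 2, its lowest library, was also the library with the lowest summed muscle genes, and within the mutant-labelled group replicate 3 was highest for both. Without control replicate 2 *Col28a1* passed the threshold at -1.29 (adjusted p = 0.0419, limma). Whether muscle tissue has a part in it was not tested.

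Of the 6 fibril-associated collagens outside cartilage, which decorate fibrils and have interrupted helices, 1 passed downward (16.7%, background 10.4%) and none upward (background 13.9%). *Col19a1* (GSMG0001406, chr1:24257683-24587437, minus strand) fell from 609.6, 544 and 364 to 109, 84.9 and 78.1, 5.58-fold between means (log2 fold change -2.45, SE 0.27, adjusted p = 0.000269). It is the convergent neighbour of *Col9a1*, 4944 bases away on chromosome 1, and both neighbours were lower. *Col14a1*, which binds decorin on fibrils, was lower by the adjusted p under 2-fold, with 23523 to 28464 against 12984 to 16647 (log2 fold change -0.76, SE 0.12, adjusted p = 0.00172), and 3 unnamed genes on its strand overlap it. *Col12a1* (-0.11), *Col16a1* (0.16), *Col20a1* (-0.62) and *Col22a1* (0.57) had the log2 fold changes in parentheses and overlapping groups, with adjusted p from 0.0627 to 0.704. Control-labelled and mutant-labelled libraries ranged from 2210.0 to 3631 and 2143 to 3024 for *Col12a1*, and from 18534 to 20706 and 19064 to 26420.4 for *Col16a1*. For *Col20a1* they ranged from 144 to 215 and 65.5 to 165. *Col22a1*, a collagen of muscle-tendon junctions, had 689.6, 484 and 492 against 969, 649 and 852, and control replicate 1 was the only control-labelled library above the lowest mutant-labelled one.

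The short-chain type VIII collagens, hexagonal network formers of vessel walls and of the corneal Descemet membrane, diverged. *Col8a2* (GSMG0027076, chr4:126286794-126314330, plus strand) fell from 3063, 3351 and 3013 to 1579, 1285 and 512 (log2 fold change -1.63, SE 0.36, adjusted p = 0.00861). *Col8a1* (GSMG0015844, chr16:57624256-57754737, minus strand) stood at 17414, 15328 and 18386 and 27208, 42780.4 and 31429.8. It was higher without overlap and by the adjusted p but just under 2-fold (log2 fold change 0.97, SE 0.16, adjusted p = 0.00229), it passed at 1.13 with libraries rescaled to the same total and at 1.01 to 1.11 without control replicate 3, mutant replicate 1 or mutant replicate 3, and 1 unnamed gene on its strand overlaps it. Of 7 endothelial markers, 3 were higher by the adjusted p (42.9%, background 19.0%) and none past the threshold (background 13.9%).

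Transmembrane collagens, which are shed from or held in the cell membrane, were the least abundant group of 4. *Col23a1* (GSMG0005156, chr11:51289920-51583901, plus strand) fell from 695, 826 and 724 to 343, 129 and 219.6 (log2 fold change -1.80, SE 0.32, adjusted p = 0.00324). *Col25a1* (GSMG0024927, chr3:130131500-130599883, plus strand), a neuronal transmembrane collagen, rose from almost nothing, with 3.33, 2.83 and 2.53 against 116, 74.3 and 77.1 (log2 fold change 4.50, SE 0.55, adjusted p = 0.000446). In reads these were 3, 3 and 2 in control-labelled and 159, 77 and 78 in mutant-labelled libraries, a ratio of read shares of 31.5 with a 95% interval of 15.8 to 73.6 that covers counting error only. The interval leaves out the spread between animals, and the fitted log2 fold change moved with the added constant, to 4.87 with 0.1 added and 2.92 with 10 added. The rise has a base of 8 reads. Of 7 neuron markers 4 were also higher past the threshold (57.1%, background 13.9%) and none lower, with sums of 3533, 3835 and 3491 in control-labelled against 8791, 7979 and 8101 in mutant-labelled libraries, and their part in it was not tested. *Col13a1*, a collagen of the neuromuscular junction, had 382, 159 and 187.5 against 75.6, 251 and 50.4 (log2 fold change -1.18, SE 0.59, adjusted p = 0.156). Its mutant replicate 2 lay inside the range of the control-labelled libraries, and without that library it passed at -1.85 (adjusted p = 0.0239, limma). *Col17a1*, the hemidesmosome collagen, with 40.6 to 91.1 against 87.0 to 137, had a log2 fold change 0.89, SE 0.39, adjusted p = 0.116 with overlapping groups, and it passed at the same total (1.05) and without control replicate 1 (1.17) or mutant replicate 3 (1.08). Genes on the same strand overlap *Col23a1*, *Col25a1* and *Col13a1*, so that some of their reads may belong elsewhere.

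Ratios of chains within each library do not depend on scaling, and they showed which partners moved together. The ratios compare libraries and say nothing of how many molecules of each chain there are, since values were not divided by gene length. *Col1a1* to *Col1a2* was 1.61, 1.68 and 1.63 in the control-labelled and 1.63, 1.58 and 1.42 in the mutant-labelled libraries, which overlapped. *Col4a1* to *Col4a2* was 0.283, 0.300 and 0.294 against 0.284, 0.291 and 0.302, which overlapped as well. The ratio of this head-to-head pair stayed between 0.283 and 0.302 in all 6 libraries while both genes fell. *Col6a1* to *Col6a2* also overlapped, at 2.76, 2.87 and 3.02 against 2.90, 3.26 and 3.19.

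In 8 of the 15 pairs computed the ratio itself separated the groups, and in 7 it overlapped, those of *Col3a1* to *Col1a1*, *Col4a5* to *Col4a6*, *Col9a1* to *Col9a3* and *Col11a1* to *Col11a2* included. The pairs were picked by hand with earlier results of these data known, and some join chains of different types. No share over other gene pairs was computed, so these counts only describe the pairs picked. *Col5a1* to *Col5a2*, the chains of the usual type V molecule, was 1.40, 1.66 and 1.56 against 0.897, 0.697 and 0.731. *Col3a1* to *Col5a2*, the convergent neighbours, was 8.60, 8.85 and 7.70 against 3.32, 3.49 and 3.06. *Col9a2* to *Col9a3* was 3.52, 2.24 and 3.59 against 0.616, 0.686 and 0.489. These 3 ratios were lower in every mutant-labelled library. *Col8a1* to *Col8a2* was 5.69, 4.57 and 6.10 against 17.2, 33.3 and 61.3. *Col18a1* to *Col15a1*, the multiplexins, was 1.13, 1.05 and 0.780 against 8.51, 12.5 and 16.3. Both were higher in every mutant-labelled library, which follows from the opposite shifts without overlap of the genes in each pair. Of the 15 pairs picked, the multiplexin ratio shifted most, by 3.62 on the log2 scale between the group means of the log2 ratio. That shift restates the log2 fold changes of *Col18a1* and *Col15a1* given above.

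**Figure D4:**
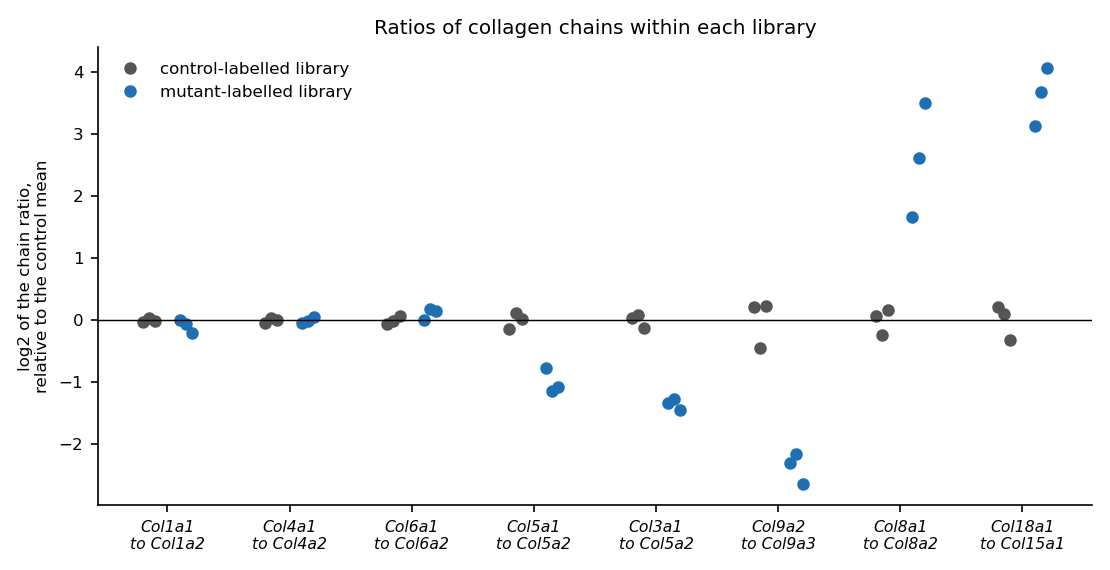
For 8 pairs of collagen genes, the log2 of the ratio of their values within a library is plotted relative to the mean of the control-labelled libraries (grey), with mutant-labelled libraries in blue, 1 point a library. The *Col1a1* to *Col1a2*, *Col4a1* to *Col4a2* and *Col6a1* to *Col6a2* points stay near 0 in both groups, whereas *Col5a1* to *Col5a2*, *Col3a1* to *Col5a2* and *Col9a2* to *Col9a3* lie lower and *Col8a1* to *Col8a2* and *Col18a1* to *Col15a1* higher in mutant-labelled libraries.

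Genes that make, bind, sense and degrade collagen were then counted from lists of known function. Of 26 genes for modification, folding and export of procollagen in the endoplasmic reticulum, 2 were lower (7.69%, background 10.4%) and 1 higher (3.85%, background 13.9%) past the threshold, both shares under the background. By the adjusted p 10 were lower (38.5%, background 16.0%) and 4 higher (15.4%, background 19.0%), and the median log2 fold change was -0.21. *Tmem38b*, an endoplasmic reticulum cation channel, was at 742, 798 and 807 and 342, 233 and 347 (log2 fold change -1.37, SE 0.19, adjusted p = 0.000929). The lysyl hydroxylase *Plod1* was at 17071, 19600 and 16719.6 and 10661, 7909 and 8096 (log2 fold change -1.01, SE 0.13, adjusted p = 0.000624), at the 2-fold limit and short of it at the same total (-0.85), in edgeR and without control replicate 2 or mutant replicates 2 or 3 (-0.95 to -0.93). Upward went *P3h2*, a prolyl 3-hydroxylase of basement membrane collagen, from 293, 343 and 242 to 1268, 1260.1 and 1021 (log2 fold change 2.02, SE 0.18, adjusted p = 8.81e-05). *Serpinh1*, the collagen chaperone, overlapped between groups at 65369, 72203 and 66681 and 68979, 61937 and 59520.4.

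Cleavage of the propeptides and cross-linking make fibrils outside the cell. Of 17 such genes 16 were tested, with 4 higher (25%, background 13.9%) and 3 lower (18.8%, background 10.4%) past the threshold. By the adjusted p 7 were higher (43.8%, background 19.0%) and 4 lower (25%, background 16.0%), and the median was 0.26. The tolloid proteinases that remove the C-terminal propeptide fell in part. *Tll2* went from 822, 748 and 683 to 53.1, 23.2 and 23.7 (log2 fold change -4.56, SE 0.35, adjusted p = 4.44e-05) and *Tll1* from 492, 638 and 406 to 259, 165 and 144 (log2 fold change -1.45, SE 0.27, adjusted p = 0.0043). The enhancer *Pcolce2* was lower too, at a log2 fold change of -1.52, and *Bmp1*, the main enzyme of this group, was lower by the adjusted p at -0.38. Among cross-linking enzymes the lysyl oxidase *Loxl4* rose from 37.8, 40.6 and 19.0 to 476, 454 and 497 (log2 fold change 3.90, SE 0.34, adjusted p = 8.05e-05). The transglutaminase *Tgm2* rose from 6674, 7113 and 5443 to 17019.5, 20713 and 16710.4 (log2 fold change 1.50, SE 0.13, adjusted p = 7.71e-05). The meprin gene *Mep1a* was at 0 in each control-labelled library and at 8.73, 42.5 and 29.7 in the others. *Lox* itself overlapped between groups at 3989.8, 3178 and 2795 and 3408, 4956 and 3156.

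Proteins that bind fibrils numbered 20, with 3 higher (15%, background 13.9%) and 1 lower (5%, background 10.4%) past the threshold. By the adjusted p 4 were higher and 4 lower (20% each, background 19.0% and 16.0%), and the median was 0.13. *Thbs2*, a thrombospondin that affects fibril shape, rose from 32785, 29521 and 26361 to 154959, 153612 and 189265 (log2 fold change 2.49, SE 0.12, adjusted p = 5.47e-06). *Thbs1* was higher too, at a log2 fold change of 1.74. The proteoglycan *Epyc* passed the threshold at 1.03 but not the adjusted p (0.0522, limma), and its call was lost in edgeR, in DESeq2, at the same 75th percentile, in limma without a trend and without control replicate 3 (0.63), mutant replicate 2 (0.82) or mutant replicate 3 (0.98). *Fmod*, fibromodulin, was the 1 lower gene, at 569, 411 and 346 and 154, 306 and 136 (log2 fold change -1.21, SE 0.34, adjusted p = 0.0231), and without mutant replicate 3 its call was lost (-0.99, adjusted p = 0.0812, limma). *Dcn*, decorin, the common small proteoglycan of type I fibrils, overlapped at 52384, 47129.6 and 36703 and 40436, 49234 and 45982 while *Col1a1* did not. Under 2-fold but called by the adjusted p were *Sparc* (log2 fold change -0.96), *Ogn* (-0.92) and *Matn2* (-0.62) downward and *Aspn* (0.75) and *Bgn* (0.74) upward.

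Collagen receptors numbered 16, of which 15 were tested, 4 were higher (26.7%, background 13.9%) and 3 lower (20%, background 10.4%) past the threshold. The adjusted p called 5 higher (33.3%, background 19.0%) and 4 lower (26.7%, background 16.0%), and the median was 0.22. The receptor tyrosine kinase *Ddr2*, which responds to fibrillar collagen, rose from 846, 535 and 525 to 2942, 2333 and 3422 (log2 fold change 2.21, SE 0.22, adjusted p = 0.000147). The hyaluronan and collagen receptor *Cd44* rose from 1404, 1526 and 1148 to 5429, 4762 and 6152, and the related kinase *Ddr1* was higher at a log2 fold change of 1.09 (0.97 without mutant replicate 1). *Mrc1*, a macrophage receptor that takes up collagen, fell from 4324, 3518 and 2964 to 796, 924 and 540 (log2 fold change -2.27, SE 0.22, adjusted p = 0.000125). It is also 1 of 8 macrophage markers, of which 3 were lower past the threshold (*Csf1r* and *Cx3cr1* with it, 37.5%, background 10.4%) and 1, *Ptprc*, higher (12.5%, background 13.9%), and their part in its fall was not tested. *Adgrg1*, a receptor of type III collagen, was lower at a log2 fold change of -1.43, and *Itga2*, the collagen-binding integrin subunit, at -1.33. *Adgrg6*, a Schwann cell receptor for type IV collagen needed for myelination, was lower by the adjusted p and under 2-fold, at 1196, 1215 and 1349.6 and 961, 791 and 679 (log2 fold change -0.64, SE 0.15, adjusted p = 0.0124).

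Enzymes and inhibitors of collagen breakdown numbered 17, of which 15 were tested, 4 were higher (26.7%, background 13.9%) and 3 lower (20%, background 10.4%) past the threshold. By the adjusted p 4 were higher (26.7%, background 19.0%) and 5 lower (33.3%, background 16.0%), and the median was -0.08. Without mutant replicate 1 the number higher past the threshold was 1, the calls of *Mmp3*, *Mmp9* and *Mmp13* being lost. *Mmp13* also lost its call in edgeR and with 0.1 added in place of 1. *Mmp3* also lost its call with 10 added, at the same 75th percentile and without control replicate 3 or mutant replicate 2. *Timp1*, an inhibitor of matrix metalloproteinases, rose from 735, 680.3 and 492 to 6176, 11163 and 9830.4 (log2 fold change 3.81, SE 0.23, adjusted p = 1.60e-05). The collagenase *Mmp13*, at 6.66, 0 and 10.1 and 40.7, 23.2 and 27.7, and the gelatinase *Mmp9*, at 4.44, 48.2 and 63.4 and 212, 125 and 129.6, were low in all libraries. Their log2 fold changes were 2.80 (adjusted p = 0.0552) and 2.56 (adjusted p = 0.0491). The collagenase *Mmp8* was lower, at 234, 181 and 161 and 29.1, 9.65 and 5.93 (log2 fold change -3.87, SE 0.58, adjusted p = 0.00127), as were the membrane-bound *Mmp15* (-1.75) and the fibroblast protease *Fap* (-1.21) by log2 fold change. *Mmp14*, the membrane-bound collagenase, overlapped at 42077, 42827 and 42136 and 42280.4, 58889 and 39297. Across these 5 lists the medians lay between -0.21 and 0.26, where the collagens had -0.80.

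**Figure D5:**
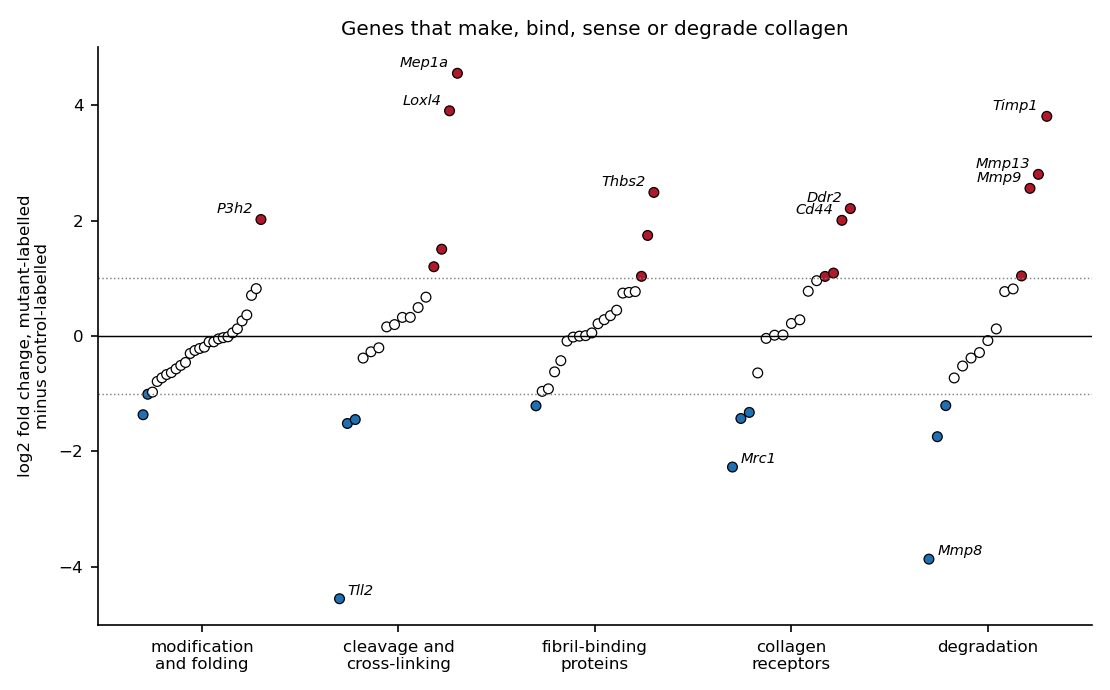
Each point is 1 tested gene of 5 lists, its log2 fold change (vertical axis, mutant-labelled minus control-labelled, from log2 of value + 1) in rising order within the list, with red and blue points past the threshold and dotted lines at a 2-fold change. Most points of each list lie between the lines, and the point of *Mep1a* depends on the added 1 because its control-labelled values are 0.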

How the data were processed

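Sciatic nerves of 3 control-labelled and 3 mutant-labelled mice at P4 were compared, 1 library each, from poly-A RNA with oriented cDNA. The submitters' processing notes name STAR 2.4.0, build mm10, FastQC, Picard, SAMtools and DESeq, and the authors counted reads on the FAST DB annotation. The deposited values are a signal, gene counts divided by a DESeq size factor, in 1 table for all libraries. They were whole multiples of 1 read (tolerance 0.02) in 100% of cases, so reads were recovered. Values are not divided by length, and the expression filter of the study's methods was not applied.

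Genes with a mean of at least 10 in 1 group were fitted with limma 3.58.1 (R 4.3.3, trended eBayes) on log2(value + 1), without covariates, and p-values were adjusted over all 25802 (Benjamini-Hochberg). edgeR 4.0.16 (quasi-likelihood) and DESeq2 1.42.0 on the recovered reads, other scalings, filters and pseudocounts, a replicate block and leaving out each library were alternatives. Intervals cover counting error only, since PCR reads carry no molecular identifiers, and p-values measure the spread between 3 animals a group. Collagens past the threshold and the chains of types I, III, IV, V and VI are given in every library, others by range or mean, and of each partner list up to 6 genes past the threshold with the largest change are named, plus some genes and members chosen after their values were seen (*Col8a1*, *Col13a1*, *Col22a1*, *Col28a1*, *Serpinh1*, *Bmp1*, *Lox*, *Dcn*, *Sparc*, *Ogn*, *Matn2*, *Aspn*, *Bgn*, *Adgrg6*, *Mmp14*, *Itgb4*, *Cldn1*). The collagens were taken by name, but the family and the gene lists were chosen with earlier results of these data known. Promoter windows are from RefSeq.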

Additional observations from a re-analysis of the deposited data

How the results depend on the processing

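Of 791 comparisons of a single collagen's result with an alternative, 760 kept direction and side of the threshold, 8 fell short of it, 15 newly passed it and 8 changed sign, and 19 of the 21 called collagens kept their call in all 12 settings and all 6 fits with a library left out. The exceptions were *Col1a1* and *Col1a2*, the latter also without control replicate 1 or 2 and in edgeR (-0.99) and DESeq2, where 17 collagens were lower in place of 18. Rescaling libraries to the same total moved the median of all genes from 0.03 to 0.19, the share of higher genes among those past the threshold from 57.3% to 66.2%, and the collagens to 5 higher and 16 lower. Signs changed only in uncalled genes with overlapping groups: *Col24a1* at the same total (0.094) and in fits with a library left out (-0.29 to 0.072), *Col12a1* likewise (0.056, and -0.27 to 0.091), and *Col4a4* (-0.080 to 0.27 with a library left out, negative without mutant replicate 1). A minimum mean of 50, which removes *Col4a3*, put the basement membrane median at -1.13. Without the 10 genes with most reads, 2 of which are collagens, the share of reads on collagens differed by -1.15 percentage points, at a mutant-to-control ratio of 0.607 against 0.596 with all genes. With a library left out, 3 to 5 collagens were higher and 16 to 20 lower, class medians ran from -0.98 to -0.75 (fibrillar), -0.81 to -0.55 (basement membrane), -2.57 to -1.93 (cartilage, lowest without mutant replicate 1) and -0.53 to -0.26 (other, highest without control replicate 1), and the share differed by -2.48 to -1.90 points. The 5 higher came without control replicate 1 (*Col6a6*, *Col17a1* added), control replicate 2 (*Col4a3*, *Col6a5*) or mutant replicate 3 (*Col8a1*, *Col17a1*), and *Col27a1* became lower without control replicate 1. The cause of these moves was not tested beyond the genes and libraries removed. In the partner lists, lower genes of modification and folding went from 2 to 1 (same total, edgeR, without control replicate 2 or mutant replicate 3), lower fibril-binding genes from 1 to 2 (same 75th percentile), 3 (without mutant replicate 1) or 0 (without mutant replicate 3), and higher breakdown genes from 4 to 1 (without mutant replicate 1) or 2 (adjusted p with the 2-fold limit). Replicate numbers did not pair the libraries (correlation of deviations for same-numbered pairs -0.06, -0.06 and 0.01), and with a replicate block 3 collagens were again higher and 18 lower.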
